A study of Mus musculus with 6 samples.

Results

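The genes described here are 35 genes of T cells and natural killer (NK) cells: the chains of the T cell receptor complex, its co-receptors and signalling proteins, T cell surface molecules, and the receptors, granule proteins and regulators of cytotoxic cells. They were read in RNA-seq of unfractionated mouse liver after 12 weeks on a high-fat high-cholesterol diet (HFHCD), a feeding model of steatohepatitis. Of the 35 genes, 34 had a row in the table of 17119 genes, and Trbc2, which encodes a constant region of the T cell receptor beta chain, was not analysed here. The filter on low counts left 28 of the 34 among 12706 tested genes.

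Both groups carry the Clec4f-iCre transgene, whose promoter drives Cre in Kupffer cells, the macrophages that reside in liver. In the heterozygous group (Clec4f-iCre;Cebpbfl/+, n = 3) 1 Cebpb allele is floxed, and in the littermate wild-type group (Clec4f-iCre;Cebpb+/+, n = 3) neither is. By design, the comparison asks which liver genes differ once Kupffer cells lack 1 copy of Cebpb, which encodes the transcription factor C/EBPβ. Whether that copy was lost in Kupffer cells was not tested here. The genotype labels of replicates 2 and 3 write the driver as Clec5f and Clec6f in both groups, whereas the series design names Clec4f throughout. The age, sex and litter of each sample were not given in the sources used here. No label says that each sample is a different animal, and the p-values then reflect only the spread between these samples, which may be technical.

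T cells recognise peptides on MHC molecules through a receptor whose CD3 and zeta chains pass the signal on to the kinases LCK and ZAP70 and the adaptor LAT. NK cells lack this receptor and use activating and inhibitory receptors of the killer lectin family. Both kinds of cytotoxic cell kill with perforin and granzymes stored in granules, and both are directed by the T-box factors T-bet (Tbx21) and eomesodermin (Eomes). The liver is rich in NK cells and in resident T cells, and CD8 T cells gather there in steatohepatitis.

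The libraries held 16895322 to 17750755 counts. Levels are given in CPM, the counts of a gene per 1000000 counts of its library, scaled by edgeR's TMM factors. Cebpb stood at 506, 308 and 340 CPM in the 3 wild-type libraries, in the order of their replicate numbers, and at 204, 498 and 269 CPM in the 3 heterozygous ones. These overlap (log2 fold change −0.25 ± 0.37, SE), and many liver cells other than Kupffer cells express Cebpb. Clec4f, the gene of the Cre driver, measured 48.6, 38.5 and 5.42 CPM in the wild-type and 4.31, 4.97 and 3.90 CPM in the heterozygous replicates. Wild-type replicate 3 thus stood near the heterozygous libraries for Clec4f (log2 fold change −2.81 ± 0.85, edgeR adjusted p = 0.260). Wild-type replicate 1 stood farther from the other wild-type libraries than they from each other over all genes, with a chi-square per degree of freedom (1 where libraries differ by counting noise alone) of 71.2 and 56.0, against 19.1. Against heterozygous replicate 2 it had 41.8, below its values against its own group. Over all tested genes edgeR's quasi-likelihood test called 71 lower (0.559%) and 3 higher (0.0236%) in the heterozygous livers at an adjusted p of 0.05. Leaving out 1 library moved this count, which ran from 0 (without heterozygous replicate 1 or 2) to 122 (without heterozygous replicate 3).

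To show what the start regions of these genes look like, the 250 bases before the RefSeq start are printed for 4 members. Cd3e, Nkg7 and Gzmk had lower levels in every heterozygous library than in any wild-type library, and Cd247, a chain of the same receptor complex as Cd3e, did not. These 4 and the motifs were picked after levels and matches had been seen, and the window of Cd3g, another CD3 gene, held none of the motifs. Each is written 5′ to 3′ on the gene's own strand in the table's build GRCm38.p6, an older build than the GRCm39 of the counts. Capitals mark matches, on either strand, to 4 short motifs: AGGAAG (bound by ETS factors), TGTGGT (RUNX), GGTGTGA (T-box) and TTGCNNAA (C/EBP).
Cd3e, chr9:45009612-45009861, minus strand: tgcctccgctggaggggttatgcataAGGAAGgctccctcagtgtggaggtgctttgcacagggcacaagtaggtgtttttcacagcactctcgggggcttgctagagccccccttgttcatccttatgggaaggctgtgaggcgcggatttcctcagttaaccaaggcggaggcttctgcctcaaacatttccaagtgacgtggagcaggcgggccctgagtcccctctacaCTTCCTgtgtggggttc
Nkg7, chr7:43436888-43437137, plus strand: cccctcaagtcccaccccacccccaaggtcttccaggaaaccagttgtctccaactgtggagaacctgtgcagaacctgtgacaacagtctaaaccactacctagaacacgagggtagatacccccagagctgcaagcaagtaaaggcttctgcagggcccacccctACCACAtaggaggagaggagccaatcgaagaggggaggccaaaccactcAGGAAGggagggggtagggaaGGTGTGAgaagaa
Gzmk, chr13:113180966-113181215, minus strand: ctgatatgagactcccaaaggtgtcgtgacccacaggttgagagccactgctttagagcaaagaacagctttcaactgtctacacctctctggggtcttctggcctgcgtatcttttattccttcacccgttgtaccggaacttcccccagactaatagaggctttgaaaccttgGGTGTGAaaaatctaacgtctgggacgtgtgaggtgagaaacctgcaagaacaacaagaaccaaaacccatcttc
Cd247, chr1:165788431-165788680, plus strand: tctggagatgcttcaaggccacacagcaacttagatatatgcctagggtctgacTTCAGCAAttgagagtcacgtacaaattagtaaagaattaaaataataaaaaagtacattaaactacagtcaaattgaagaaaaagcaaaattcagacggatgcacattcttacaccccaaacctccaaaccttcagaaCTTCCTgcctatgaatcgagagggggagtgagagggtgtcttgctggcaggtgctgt

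The Cd3e window held the ETS letters at both ends and no other of these motifs. The Nkg7 window held ETS, RUNX and T-box letters, the Gzmk window T-box letters only, and the Cd247 window ETS and C/EBP letters. RefSeq start sequences were found for 22 of the 35 genes, with 28 starts in all, some of them overlapping starts of 1 gene. The ETS letters stood in 15 of these 28 windows (53.6%), against 29.5% of 32851 mouse windows of the same length. The RUNX letters stood in 11 (39.3%, against 14.05%), the C/EBP letters in 5 (17.9%, against 9.56%) and the T-box letters in 2 (7.14%, against 3.33%). These are matches of letters and show no binding.

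In the livers, T and NK cell transcripts were scarce, and most stood lower in the heterozygous libraries, but none passed the test over all genes. Raw counts of single members lay between 0 and 240 per library. Of the 34 genes with a row, 33 had a lower mean CPM in the heterozygous livers (against 50.6% of all genes with a count), and Cd247 was the exception. The members were chosen with earlier results of these data known, so such shares are a description and not a test. In 18 of the 34, a count made after the values were seen, every heterozygous library lay below every wild-type library, as was the case for 10.2% of all genes with a count, and in 0 of the 34 did the groups separate the other way (6.04% of all genes). With 3 samples a group, edgeR called 0 of the 28 tested members (adjusted p from 0.0971 to 0.969), limma-voom (plain or robust) and DESeq2 called 0 as well, and 16 had an unadjusted edgeR p under 0.05, all with negative fold changes. Over all tested genes 8.996% were lower and 4.20% higher at that unadjusted p.

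The median log2 fold change, heterozygous over wild-type, was −0.73 over the 28 tested members and 0.0048 over all tested genes, and 27 of the 28 were negative, against 49.0%. Of the 28, 17 separated downwards (11.3% of all tested genes) and 0 upwards (7.05%). Among the 28 tested members, Gzmk and Tbx21 reached the count the filter asks for in the wild-type libraries only and so had to differ to be tested. With no filter, all 34 genes with a row were fitted: the median was −0.68, 33 had a negative fold change, and 16 had an unadjusted p under 0.05 and were lower, against 7.42% of all genes in that fit. In whole tissue, fewer T and NK cells and less RNA per cell cannot be told apart.

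**Figure D1:**
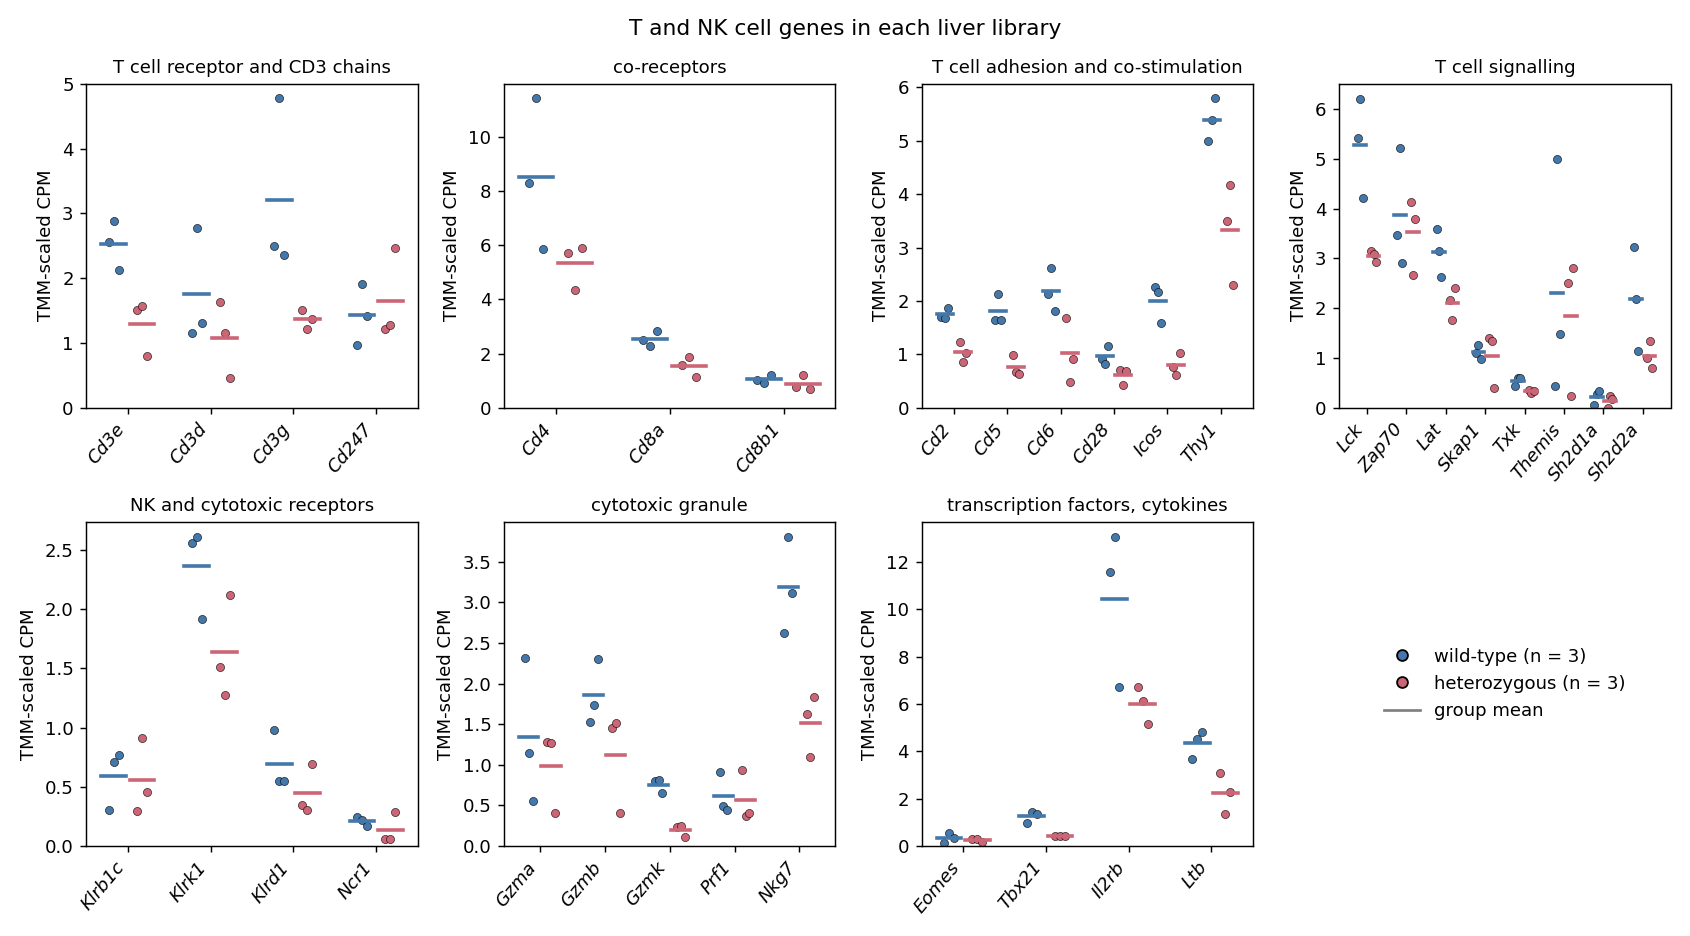
Levels of the 34 T and NK cell genes with a row, in TMM-scaled CPM, with 1 point per library (3 wild-type in blue, 3 heterozygous in red), a line at each group mean and 1 panel per role. The heterozygous points lie below the wild-type points for 18 genes, all 6 of the adhesion and co-stimulation panel among them.

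The CD3 chains hold the T cell receptor at the surface and carry its signalling tails. Cd3e measured 2.56, 2.88 and 2.13 CPM in the wild-type libraries and 1.51, 1.57 and 0.803 CPM in the heterozygous libraries, again in replicate order. The groups did not overlap, and the log2 fold change was −0.96 ± 0.33 (SE; edgeR adjusted p = 0.231). Cd3g measured 2.50, 4.79 and 2.35 CPM against 1.51, 1.21 and 1.38 CPM, again without overlap, and its high wild-type value came from replicate 2 (log2 fold change −1.23 ± 0.35, edgeR adjusted p = 0.142). Without wild-type replicate 2 the fold change of Cd3g was −0.82.

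The other 2 chains overlapped between the groups. Cd3d measured 1.16, 2.77 and 1.31 CPM in the wild-type and 1.63, 1.15 and 0.459 CPM in the heterozygous replicates, a wide spread in both groups (log2 fold change −0.70 ± 0.51). Cd247, which encodes the zeta chain that T cells and NK cells share, measured 0.976, 1.90 and 1.42 CPM against 1.22, 1.27 and 2.47 CPM. Its highest library was heterozygous replicate 3, where Cd3e and Cd3d were lowest. The Cd247 log2 fold change was 0.20 with a 95% interval from −0.69 to 1.09, and it turned to −0.20 without that library. Whether Cd247 differs from the CD3 chains in its response was not tested.

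The co-receptors CD4 and CD8 bind MHC class II and class I. Cd4 measured 8.30, 11.4 and 5.86 CPM in wild-type and 5.71, 4.36 and 5.91 CPM in heterozygous livers, and wild-type replicate 3 lay among the heterozygous libraries (log2 fold change −0.68 ± 0.26, edgeR adjusted p = 0.299). Cd8a measured 2.50, 2.29 and 2.85 CPM against 1.57, 1.88 and 1.15 CPM, without overlap (−0.73 ± 0.29, edgeR adjusted p = 0.309). Cd8b1, the beta chain of conventional CD8 T cells, measured 1.04, 0.925 and 1.20 CPM against 0.757, 1.21 and 0.688 CPM. Heterozygous replicate 2 was the highest library for Cd8b1, and the 95% interval ran from −1.10 to 0.59.

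Cd8a is also made by some conventional dendritic cells, and Cd4 and Gzmb by plasmacytoid dendritic cells. The dendritic marker Xcr1 measured 1.53 to 3.32 CPM in wild-type and 0.363 to 1.20 CPM in heterozygous livers, and all 8 genes of the conventional dendritic cell list had negative fold changes (summed level 22.9 to 29.2 CPM against 11.9 to 20.2 CPM, none of them at 0 in all libraries). The plasmacytoid marker Siglech measured 0.979 to 3.54 CPM and 0.524 to 1.09 CPM, and 6 of 6 tested genes of that list were negative (summed level 250.1 to 299 CPM against 239 to 270.1 CPM, with none at 0 in all libraries). That sum was mostly Bst2, at a mean of 261.0 of 277.8 CPM in wild-type and 243.6 of 257.0 CPM in heterozygous livers. The log2 fold changes of Bst2 and Tcf4 were −0.10 and −0.04, and the groups overlapped in 6 of the 7 listed genes. The part of these cells in the Cd4, Cd8a and Gzmb values was not tested.

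For the adhesion and co-stimulatory molecules of T cells, the heterozygous libraries lay below the wild-type ones in 6 of 6 genes, against 10.2% of all genes with a count. CD2 and CD28 strengthen T cell activation, CD5 and CD6 are scavenger-type receptors that tune it, ICOS is a co-stimulator of activated T cells, and THY1 is a surface glycoprotein of mouse T cells. Icos measured 2.26, 2.18 and 1.59 CPM in wild-type and 0.757, 0.606 and 1.03 CPM in heterozygous livers (log2 fold change −1.32 ± 0.34, edgeR adjusted p = 0.117). Cd5 measured 1.65, 2.12 and 1.64 CPM against 0.990, 0.666 and 0.631 CPM (−1.24 ± 0.34, edgeR adjusted p = 0.134). These are the largest differences in this role, 2.49-fold and 2.35-fold lower.

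Cd6 measured 2.13, 2.61 and 1.81 CPM in wild-type and 1.69, 0.485 and 0.918 CPM in heterozygous livers, with heterozygous replicate 1 just below the wild-type range (log2 fold change −1.08 ± 0.43). Cd2 measured 1.71, 1.69 and 1.86 CPM against 1.22, 0.848 and 1.03 CPM, with little spread within either group (−0.75 ± 0.30, edgeR adjusted p = 0.318). Cd28 measured 0.915, 0.816 and 1.15 CPM against 0.699, 0.424 and 0.688 CPM, from 7 to 21 raw counts per library, and its 95% interval of −1.55 to 0.23 included 0.

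Thy1 measured 5.002, 5.39 and 5.80 CPM in wild-type and 3.49, 4.18 and 2.29 CPM in heterozygous livers (log2 fold change −0.70 ± 0.25, edgeR adjusted p = 0.254). THY1 is also found on fibroblasts of the portal tract. The stellate cell and portal fibroblast list summed to 469 to 622 CPM in wild-type and 311 to 452 CPM in heterozygous livers, with 6 of 8 genes negative and none at 0, and Dcn, a fibroblast proteoglycan, measured 214 to 270 CPM against 157 to 206 CPM. The cholangiocyte list summed to 106 to 155 CPM against 60.9 to 98.8 CPM, with 4 of 5 tested genes negative and none at 0. These sums were mostly Spp1, at a mean of 104.6 of 127.5 CPM in wild-type and 62.7 of 82.3 CPM in heterozygous livers. Spp1 and Krt7 separated downwards and the other 4 genes overlapped, the marker Krt19 among them (1.83 to 3.01 CPM against 1.28 to 3.15 CPM). The part of these cells in the Thy1 values was not tested.

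Among the signalling proteins, the kinase gene Lck separated the groups and the kinase gene Zap70 did not. LCK phosphorylates the CD3 and zeta tails, to which ZAP70 then binds. Lck measured 5.43, 6.20 and 4.21 CPM in wild-type and 3.14, 3.09 and 2.92 CPM in heterozygous livers (log2 fold change −0.79 ± 0.22, edgeR adjusted p = 0.142). Zap70 measured 3.48, 5.22 and 2.90 CPM against 4.13, 2.67 and 3.78 CPM, with interleaved libraries. The Zap70 fold change was −0.13 with a 95% interval from −0.78 to 0.52, and it was 0.15 without wild-type replicate 2 and 0.03 without heterozygous replicate 2. The difference between the kinases was not tested.

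Lat, the adaptor that ZAP70 phosphorylates, measured 3.60, 3.16 and 2.63 CPM in wild-type and 2.15, 1.76 and 2.41 CPM in heterozygous livers, without overlap (log2 fold change −0.57 ± 0.26, edgeR adjusted p = 0.393). Sh2d2a, the gene of a T cell-specific adaptor that binds LCK, measured 3.23, 2.18 and 1.15 CPM against 0.990, 1.33 and 0.803 CPM, so 1 wild-type library lay among the heterozygous ones (−1.06 ± 0.42). Skap1, an adaptor gene for integrin activation, measured 1.10, 1.25 and 0.985 CPM against 1.40, 1.33 and 0.401 CPM. The Skap1 log2 fold change of −0.09 was 0.30 without heterozygous replicate 3, its lowest library.

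Themis, which encodes a protein needed for T cell selection in the thymus, varied most of all members. It measured 0.427, 5.01 and 1.48 CPM in wild-type and 2.50, 0.242 and 2.81 CPM in heterozygous livers, from 4 to 92 raw counts. The chi-square per degree of freedom of its counts was 43.0 within the wild-type and 17.6 within the heterozygous group. Its 95% interval ran from −2.86 to 2.22, so the data say little on its direction. Txk, a TEC-family kinase gene, had 5 to 11 counts and Sh2d1a, which encodes the SLAM adaptor SAP, 0 to 6 counts per library, and neither passed the filter. Txk measured 0.427 to 0.602 CPM in wild-type and 0.303 to 0.349 CPM in heterozygous livers, without overlap.

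**Figure D2:**
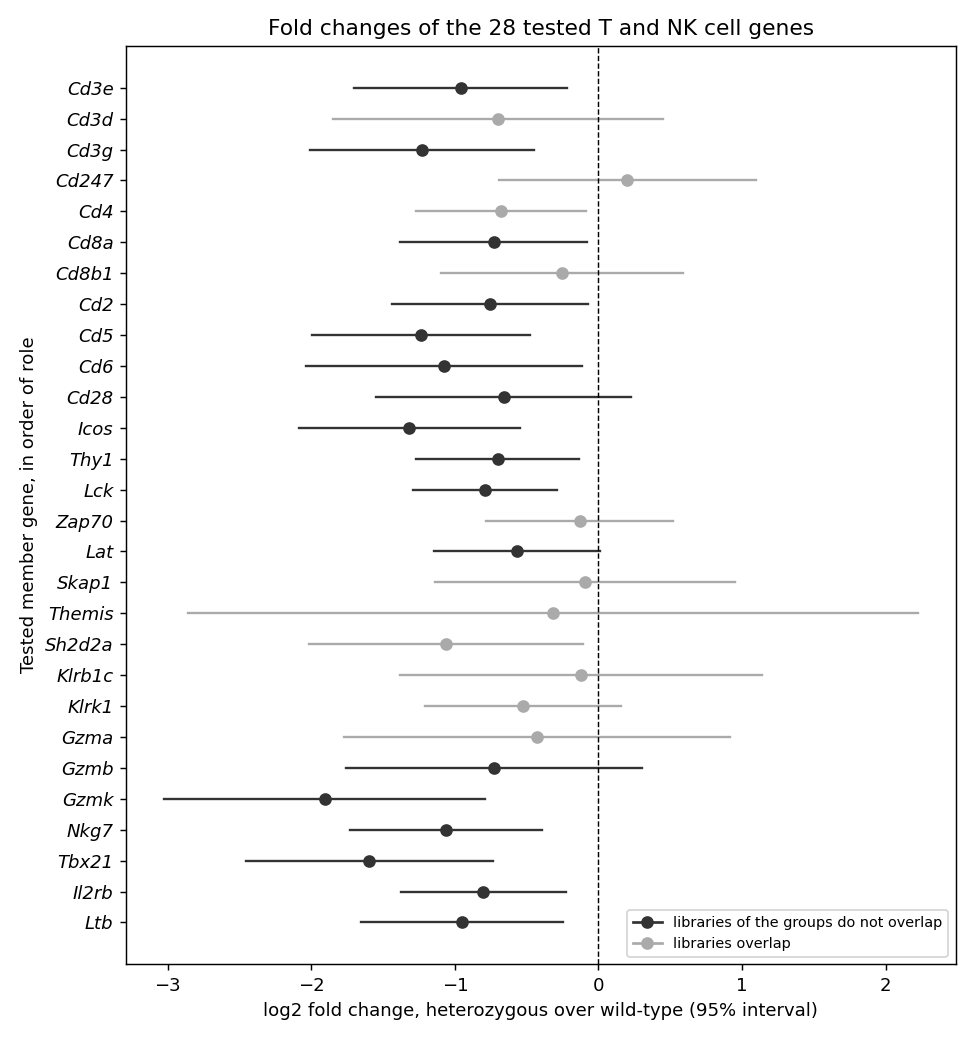
Log2 fold change (heterozygous over wild-type) with its 95% interval from edgeR for each of the 28 tested members, in order of role. Dark points are genes whose libraries do not overlap between groups, light points those that overlap; 27 of the 28 points lie below 0, and 16 intervals exclude 0 before adjustment over all genes.

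For the killer receptors, the groups overlapped in 4 of 4 genes, as they did for most genes. Of all genes with a count, 10.2% separated downwards and 6.04% upwards. Klrk1, which encodes the activating receptor NKG2D of NK and CD8 T cells, measured 2.56, 2.61 and 1.92 CPM in wild-type and 1.51, 1.27 and 2.12 CPM in heterozygous livers (log2 fold change −0.53 ± 0.30, 95% interval −1.21 to 0.16). Klrb1c, the gene of the mouse NK marker NK1.1, measured 0.305, 0.707 and 0.766 CPM against 0.291, 0.909 and 0.459 CPM, from 5 to 15 counts. At that depth the Klrb1c interval of −1.38 to 1.14 covers large changes in both directions. Klrd1, the gene of CD94, had 5 to 16 counts and Ncr1, which encodes the NK receptor NKp46, 1 to 5 counts per library, and both were left out by the filter.

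Of the cytotoxic granule genes, Gzmk and Nkg7 stood apart between the groups and Gzma and Prf1 did not. Gzmk, a granzyme of memory-type CD8 T cells, measured 0.793, 0.816 and 0.657 CPM in wild-type and 0.233, 0.242 and 0.115 CPM in heterozygous livers, from 12 to 15 against 2 to 4 raw counts. Its log2 fold change of −1.91 ± 0.49 was the largest of the tested members (edgeR adjusted p = 0.118) and rests on these few reads. Gzmk reached the count the filter asks for in the wild-type libraries only, so it had to differ to be tested. Nkg7, a granule membrane protein gene of cytotoxic cells, measured 2.62, 3.81 and 3.12 CPM against 1.63, 1.09 and 1.84 CPM (−1.06 ± 0.30, edgeR adjusted p = 0.141).

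Gzmb, which encodes the granzyme that activates caspases, measured 1.52, 1.74 and 2.30 CPM in wild-type and 1.46, 1.51 and 0.401 CPM in heterozygous livers. The Gzmb groups were parted by a narrow gap, which closed with scaling by library size only (lowest wild-type library 1.41 CPM, highest heterozygous library 1.48 CPM). Heterozygous replicate 3 held much of the difference: without it the log2 fold change went from −0.73 to −0.32. Gzma measured 2.32, 1.14 and 0.547 CPM against 1.28, 1.27 and 0.401 CPM (−0.43 ± 0.59), and its sign turned without wild-type replicate 1 (0.23). Prf1, the perforin gene, had 6 to 16 counts per library and measured 0.438 to 0.915 CPM against 0.363 to 0.932 CPM. Granzyme and killer lectin genes have close copies, and how reads that match several of them were counted is unknown here.

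Among the regulators of cytotoxic cells, Tbx21 is the gene of T-bet, which drives the type 1 programme of T cells and the maturation of NK cells. It reached the count the filter asks for in the wild-type libraries only, so it had to differ to be tested. Its rank among the members is therefore no support for a difference. Tbx21 measured 0.976, 1.41 and 1.37 CPM in wild-type and 0.408, 0.424 and 0.401 CPM in heterozygous livers, from 16 to 26 against 7 raw counts in each heterozygous library. Its log2 fold change was −1.60 ± 0.38 (3.02-fold lower), with the lowest adjusted p of the members (edgeR adjusted p = 0.0971), and it kept values between −1.75 and −1.50 over all alternatives that tested it, with adjusted p from 0.0834 to 0.325. Eomes had 2 to 10 counts and measured 0.122 to 0.544 CPM against 0.172 to 0.303 CPM.

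Il2rb, the chain that T and NK cells use to receive interleukin 2 and interleukin 15, measured 11.6, 13.1 and 6.73 CPM in wild-type and 6.70, 6.12 and 5.16 CPM in heterozygous livers. Wild-type replicate 3 stood just above heterozygous replicate 1, and the groups did not overlap under any of the 4 scalings tried (log2 fold change −0.80 ± 0.25, edgeR adjusted p = 0.189). Ltb, which encodes lymphotoxin beta, measured 3.66, 4.52 and 4.82 CPM against 3.09, 1.33 and 2.29 CPM (−0.95 ± 0.31, edgeR adjusted p = 0.208). B cells make Ltb too. The B cell gene Cd79a measured 0.671 to 2.23 CPM in wild-type and 0.918 to 1.16 CPM in heterozygous livers, and Ms4a1, also of B cells, 0.274 to 0.490 CPM and 0.344 to 0.582 CPM. The B and plasma cell list summed to 24.2 to 53.1 CPM against 16.8 to 23.7 CPM, with 6 of 7 tested genes negative and none at 0 in all libraries, and Jchain, made by plasma cells, held 24.4 of the mean wild-type sum of 34.9 CPM. Of its untested genes, the B cell factors Pax5 (0.164 to 0.435 CPM against 0.524 to 0.803 CPM) and Ebf1 (0.183 to 0.326 CPM against 0.344 to 0.485 CPM) separated the other way, and are named after their values were seen. The part of B cells in the Ltb values was not tested.

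Levels were also set per kilobase of merged exon, for a rough comparison of different genes. The lengths join all annotated exons of a gene, so the order depends on the annotation. Nkg7 led the members in wild-type livers at 3.48 ± 0.651 CPM per kb (SD, n = 3). Next came Ltb at 2.86 ± 0.396, Il2rb at 2.44 ± 0.772 and Cd4 at 2.11 ± 0.692 CPM per kb. The ranges of mean ± SD overlap between neighbours in this order, and differences within each library were not tested. Lck at 1.80 ± 0.342 and Thy1 at 1.80 ± 0.133 CPM per kb came next, and the CD3 genes Cd3g, Cd3d and Cd3e stood at 0.983 ± 0.418, 0.964 ± 0.491 and 0.619 ± 0.0921 CPM per kb. The lowest were Eomes, Txk and Sh2d1a, between 0.0401 and 0.0798 CPM per kb. Exon lengths came from GENCODE M21, which is not the annotation of the counts.

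**Figure D3:**
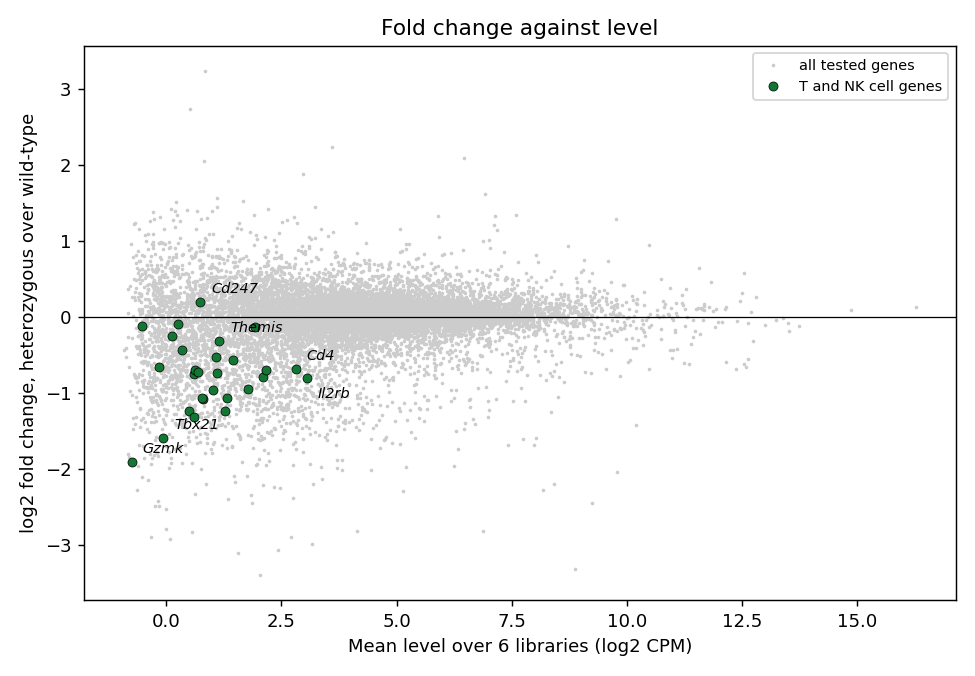
Log2 fold change (heterozygous over wild-type) against mean level over 6 libraries (log2 CPM) for 12706 tested genes in grey and the 28 tested T and NK cell genes in green. The members lie at the low end of the level axis, where fold changes of all genes scatter widely, and 27 of 28 lie below 0.

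The libraries did not contribute alike. Wild-type replicate 2 held the highest wild-type value for 17 of the 34 genes and wild-type replicate 3 the lowest for 17. Summed over the 34 genes, the level was 79.0, 97.3 and 69.0 CPM in wild-type and 55.7, 46.0 and 47.8 CPM in heterozygous livers, so every heterozygous library lay below every wild-type library. The means were 81.8 ± 14.4 and 49.9 ± 5.13 CPM (SD, n = 3), a ratio of 1.64. By role the ratio of summed means was largest for adhesion and co-stimulation (1.87, 14.1 ± 0.610 against 7.55 ± 1.17 CPM) and for regulators and cytokine genes (1.84), and smallest for killer receptors (1.39) and signalling genes (1.42).

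Genes of leukocytes at large were lower too. The pan-leukocyte list (Ptprc, Coro1a, Cd53 and 7 others) summed to 201 to 272 CPM in wild-type and 95.4 to 114 CPM in heterozygous livers, a ratio of 2.21, with 10 of 10 genes negative and 5 called lower by edgeR. Per 100 CPM of pan-leukocyte genes, the T and NK genes came to 39.3, 35.8 and 33.9 CPM in the wild-type and 58.4, 47.2 and 42.0 CPM in the heterozygous replicates. So the T and NK sum was lower per library and higher relative to the pan-leukocyte sum in every heterozygous library. The pan-leukocyte genes are also expressed by myeloid cells, whose lists summed 2.34 (Kupffer cells), 2.69 (neutrophils) and 1.37 (monocytes and recruited macrophages) times as high in wild-type as in heterozygous livers. The sums of the last list overlapped between the groups (2049 to 2741 CPM against 1278 to 2200 CPM) and were mostly Fn1, which hepatocytes also make (1868 ± 482 and 1527 ± 481 CPM, SD, n = 3), while 9 of its 9 genes had negative fold changes. In wild-type livers Cd5l held 181.0 of the mean Kupffer cell sum of 409.2 CPM, and Csf3r 13.5 of the mean neutrophil sum of 26.8 CPM. Of 8 Kupffer cell genes, 6 separated downwards and 2 overlapped, and 1 had a positive fold change. Of 7 neutrophil genes, 4 separated downwards and 3 overlapped, against 10.2% of all genes with a count that separated downwards. Sinusoidal endothelial genes summed to 162 to 206 CPM against 195 to 249.6 CPM, with 4 of 6 positive. Hepatocyte genes summed to 94233 to 125206 CPM against 105495 to 127495 CPM, with overlap.

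**Figure D4:**
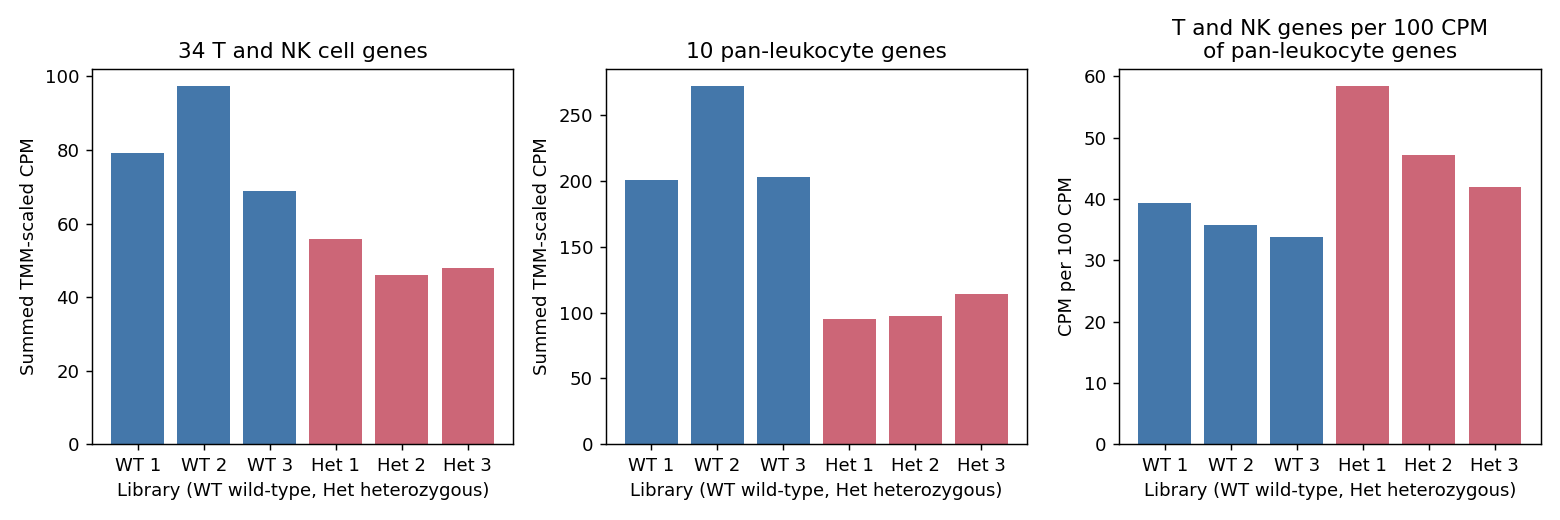
Summed TMM-scaled CPM of the 34 T and NK cell genes (left) and of 10 pan-leukocyte genes (middle), and the first as CPM per 100 CPM of the second (right), with 1 bar per library. The heterozygous bars are the lower ones in the left and middle panels and the higher ones in the right panel, where they stand between 42.0 and 58.4.

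Other genes of the same cells were read from 4 further lists. Of 13 tested genes of T cell signalling, 1 was called lower and 0 higher, and 12 had a negative fold change. The called gene was Vav1, which encodes an exchange factor downstream of the receptor that myeloid cells also express. Vav1 measured 12.0, 15.5 and 9.74 CPM in wild-type and 4.37, 3.45 and 5.68 CPM in heterozygous livers (log2 fold change −1.46 ± 0.24, edgeR adjusted p = 0.0489), and 3 of 16 alternatives called it. Ptprcap, a protein bound to CD45, was at 2.91 ± 0.314 and 1.06 ± 0.201 CPM (SD, n = 3; edgeR adjusted p = 0.0561), and the adaptor gene Fyb at 27.1 ± 8.39 and 11.7 ± 1.99 CPM (0.0561).

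Of 18 tested genes of T cell subsets and checkpoints, 0 were called in either direction by edgeR, and 16 had a negative fold change; at an unadjusted p under 0.05, 8 were lower and 1 higher. The interleukin 7 receptor gene Il7r stood at 2.78 ± 0.675 and 1.12 ± 0.379 CPM and the co-stimulator gene Cd27 at 1.60 ± 0.317 and 0.624 ± 0.136 CPM (SD, n = 3). The edgeR adjusted p was 0.122 for Il7r and 0.126 for Cd27, and DESeq2 called Il7r lower (adjusted p = 0.0408).

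Of 14 tested NK and cytotoxic genes outside the members, edgeR called 0, with 12 negative fold changes and 4 lower and 0 higher at an unadjusted p under 0.05. A further 16 of the 30 listed, Ly49 and other killer receptor genes and Ifng among them, were below the filter. Slamf7, a receptor of NK cells, plasma cells and macrophages, measured 5.49, 5.98 and 5.69 CPM in wild-type and 2.15, 0.909 and 3.38 CPM in heterozygous livers (log2 fold change −1.41 ± 0.38, edgeR adjusted p = 0.139; called by DESeq2 at 0.0135). Itga2, the integrin subunit of circulating NK cells that is also on platelets, was at 1.49 ± 0.892 and 0.489 ± 0.177 CPM, and Cx3cr1, shared with monocytes, at 5.94 ± 2.37 and 2.36 ± 1.37 CPM with overlap (SD, n = 3).

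Of 15 tested genes for signals that attract or activate T and NK cells, 2 were called lower and 0 higher, and 14 had a negative fold change. Ccl5, a chemokine that T and NK cells also make, fell from 16.4, 20.5 and 20.03 CPM in wild-type to 8.91, 5.88 and 7.57 CPM in heterozygous livers (log2 fold change −1.35 ± 0.18, edgeR adjusted p = 0.0308; called in 8 of 16 alternatives). Il2rg, the chain that pairs with the product of Il2rb, fell from 14.8, 27.2 and 16.1 CPM to 5.01, 5.21 and 7.86 CPM (−1.68 ± 0.28, edgeR adjusted p = 0.0494; called in 3 of 16 alternatives). The calls of Vav1, Ccl5 and Il2rg were lost when any single library other than heterozygous replicate 3 was left out. Il2rg is expressed by many leukocytes, and its difference from the −0.80 of Il2rb was not tested. Cxcl16, the ligand of CXCR6 on liver T cells, stood at 21.5 ± 4.81 and 9.39 ± 2.25 CPM, Icosl, the ligand of ICOS, at 3.94 ± 1.15 and 1.21 ± 0.352 CPM, and Cd80, a ligand of CD28, at 1.95 ± 0.409 and 0.626 ± 0.018 CPM (SD, n = 3; edgeR adjusted p = 0.0526, 0.0561 and 0.0634).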

How the data were processed

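RNA of 6 liver samples, 3 per genotype, was sequenced from stranded poly(A) libraries, per the labels' protocols. The authors deposited raw counts of reads per gene, made with Trimmomatic 0.36, HISAT2 2.2.1.0 and HTSeq 0.9.1 on GRCm39, per the submitters' processing notes. With annotation and strand setting not given in the sources used here, genes with an antisense partner are uncertain. Groups were taken from the titles. In R 4.3.3, edgeR 4.0.16 (filterByExpr by group, TMM, robust glmQLFit and glmQLFTest, no covariate) was fitted on all genes, with Benjamini-Hochberg adjustment at 0.05. Each SE was derived from the fold change and its F statistic, and intervals are at 95%. CPM values are scaled by TMM, and depth limits genes of few reads. Alternatives were RLE and upper-quartile scaling, other filters, DESeq2 1.42.0, limma-voom (limma 3.58.1; a robust version was added after seeing the data), a non-robust fit, the replicate number as a block and left-out libraries. The method was tested on simulated data with the same dispersion for every gene, which does not cover the uneven spread of these libraries. Same-numbered libraries deviated from their group means with correlations of −0.21, −0.31 and 0.19, so they were not treated as pairs. The members, lists and tests were chosen with earlier results of these data known. Named were all 35 members, and of each further list the genes past the threshold and up to 3 more with the smallest p, the Cre driver and targeted genes, and markers of cells that share a member. A few genes that this rule or their values would name are not reported here.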

Additional observations from a re-analysis of the deposited data

How the results depend on the processing

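The count of T and NK members called stayed at 0 in all 16 alternatives, and the members' median log2 fold change lay between −0.78 and −0.68. It moved by less than 0.23, the pooled within-group SD of the libraries' median log2 CPM over the members. The count of all genes called, 74, was 37 with upper-quartile scaling, 211 with no filter on low counts, 48 with at least 1 CPM in 3 libraries, 534 in DESeq2, 0 in limma-voom, 46 in limma-voom with robust moderation (chosen after seeing the data), 20 with a non-robust edgeR fit, 4 with both wild-type replicate 1 and heterozygous replicate 2 left out, and 0 to 122 with each library left out in turn. With the replicate block it was 0, and the members' median was −0.75. The shared numbers do not pair the samples, and not every library correlated best with its own number. The highest correlation, 0.42, was between wild-type replicate 1 and heterozygous replicate 2, the libraries left out together above. At an unadjusted p under 0.05, the block fit had 1427 genes, limma-voom 1686, and the fits without heterozygous replicate 1 or 2 had 1104 and 1601; why these gave 0 calls was not tested, beyond the robust moderation in limma-voom. The members that separated the groups downwards, with alternatives chosen after seeing the data, numbered 17 to 23 of 34, while the share over all genes with a count, 10.2%, moved too. Of the scalings, library size only gave 17 members (without Gzmb) and 9.38% of all genes. Leaving out single libraries gave 18 to 22 members and 12.1% to 16.1%, and leaving out both wild-type replicate 1 and heterozygous replicate 2 gave 23 members and 21.4%; fewer libraries separate more readily.

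Of the 28 tested members, 22 kept their sign in every alternative that tested them. With single libraries left out, the log2 fold change ran from −0.20 (without heterozygous replicate 3) to 0.46 for Cd247, from −0.30 to 0.15 for Zap70 (0.03 without heterozygous replicate 2), from −0.35 to 0.30 for Skap1 (0.0048 without wild-type replicate 2), from −0.78 to 0.95 for Themis (0.19 without heterozygous replicate 2), from −0.66 to 0.20 for Klrb1c (0.03 and 0.10 without wild-type replicate 2 or 3) and from −0.80 to 0.23 for Gzma, which was 0.0023 with both wild-type replicate 1 and heterozygous replicate 2 left out. Of the other genes, Cebpb ran from −0.70 to 0.016 (0.0063 without heterozygous replicate 1), Cd79a from −0.73 to 0.11, and Krt19, at 0.0042 with all libraries, from −0.25 to 0.32, with −0.072 in both limma-voom fits, −0.040 with the replicate block and −0.24 with both libraries left out. The cause was not tested. Of the 34 genes with a row, 11 had a median wild-type count under 20, a limit chosen after seeing the data, and depth limits their values most.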

Other observations

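Further T cell genes, named here after their values were seen, had no overlap between the groups. Foxp3, the regulatory T cell factor, measured 1.16, 2.18 and 1.81 CPM in the wild-type and 0.582, 0.485 and 0.860 CPM in the heterozygous livers (log2 fold change −1.41 ± 0.39, edgeR adjusted p = 0.141). The checkpoint genes Pdcd1 and Ctla4 were below the filter and have no test. Pdcd1, which encodes PD-1, measured 0.549, 1.47 and 0.547 CPM against 0.233, 0.303 and 0.401 CPM. Ctla4 measured 1.16, 0.816 and 0.493 CPM against 0.175, 0.121 and 0.459 CPM.

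Zbtb16, which encodes PLZF, a factor of NKT cells, stood at 132, 106 and 118 CPM in the wild-type livers and at 109 and 116 CPM in heterozygous replicates 2 and 3, but at 11.6 CPM in heterozygous replicate 1 (log2 fold change −0.59 ± 0.82, edgeR adjusted p = 0.855). It was named for that library after its values were seen. In each wild-type library Zbtb16 stood above the sum of the 34 T and NK cell genes (79.0, 97.3 and 69.0 CPM). Which liver cells made the Zbtb16 RNA was not tested, so its level is not a reading of NKT cells.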
